A study of Mus musculus with 8 samples.

Results

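The inorganic ion carriers of the kidney tubule were examined in tubuloids, the epithelial structures that tubule fragments form in Matrigel. They were taken as all gene symbols of the solute carrier families SLC4, SLC8, SLC9, SLC12, SLC20, SLC24, SLC26 and SLC34. This pattern found 55 of the 24063 gene symbols in the deposited tables, listed as 84 transcripts. Of these, 52 are carriers and 3 share only the name of one: *Slc9a3r1* and *Slc9a3r2* encode scaffold proteins that bind the exchanger *Slc9a3*, and *Slc4a1ap* encodes an adaptor protein. After genes with low counts were removed, 46 of the 55 symbols (43 of the 52 carriers) were tested.

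All 8 cultures were grown from postnatal kidney of mice with the genotype Pkd2fl/fl Pax8rtTA TetOCre mTmG, in which a *Pax8*-driven, inducible Cre can delete floxed *Pkd2*. The labels name no inducer for them, and give the age as postnatal day 7 to 10, whereas the methods of the study give a younger range. After plating, 4 cultures (GDNF cultures 6, 12, 17 and 22) received a 24 h pulse of glial cell line-derived neurotrophic factor, a ligand of the RET receptor, and 4 controls (cultures 3, 7, 14 and 21) did not. Every culture had growth factor medium throughout and was lysed whole on culture day 7, so that fewer cells of a type and less RNA per cell cannot be told apart. No label ties a culture to a mouse or a litter, and p-values measure the spread between cultures.

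Ion carriers give each segment of the nephron its task. The proximal tubule reclaims phosphate through *Slc34a1* and exchanges sodium for protons through *Slc9a3*, and the thick ascending limb of the loop of Henle takes up sodium, potassium and chloride through *Slc12a1*. The distal convoluted tubule takes up sodium with chloride through *Slc12a3*, and intercalated cells of the collecting duct exchange chloride for bicarbonate, at the basolateral side through *Slc4a1* in the acid-secreting kind and at the apical side through *Slc26a4* in the base-secreting kind. Other members serve cell volume, cell pH or intracellular compartments in many cell types.

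Total counts were between 72991721 and 97490625 per culture, and 3 counts, the lowest amount treated as detectable, were 0.0308 to 0.0411 CPM (counts scaled to library size). The factors for library composition (TMM) were 1.07 to 1.11 in GDNF cultures, 0.963 to 0.982 in controls 7, 14 and 21, and 0.790 in control 3. *Xist* RNA exceeded Y-linked RNA in controls 3 and 7 and GDNF cultures 6 and 12, and the reverse held in the others. Of the former, control 3 (12.5 TPM of *Xist* and 1.502 TPM of Y-linked RNA) and GDNF culture 6 (57.4 and 6.46 TPM) held both kinds. Levels of different genes are compared in TPM, a value per length, read from each gene's most counted transcript. Mean TPM was higher in GDNF cultures for 78.6% of the 13698 genes that averaged 1 TPM or more, so differences between groups are given in CPM with TMM normalization. RNA of cells other than tubule cells was present as well. Summed TPM was 349.2 to 3148 in controls and 873.2 to 1252 in GDNF cultures for 7 general epithelial markers, and 113.5 to 1087 and 137.9 to 891.1 for 8 stromal markers. Control 14 was the lowest in the former and the highest in the latter.

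Tubuloids held RNA of about as many carriers above as below 1 TPM. The mean over the 8 cultures was at least 10 TPM for 8 of the 52 carriers, 1 to 10 TPM for 19, 0.1 to 1 TPM for 13 and less than 0.1 TPM for 12. All 8 carriers listed as basolateral or shared along the nephron had at least 1 TPM, compared with 5 of 8 proximal, 1 of 3 loop, 1 of 3 distal and 4 of 7 intercalated carriers. Of 18 carriers known mainly from other organs, 4 had at least 1 TPM.

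**Figure D1:**
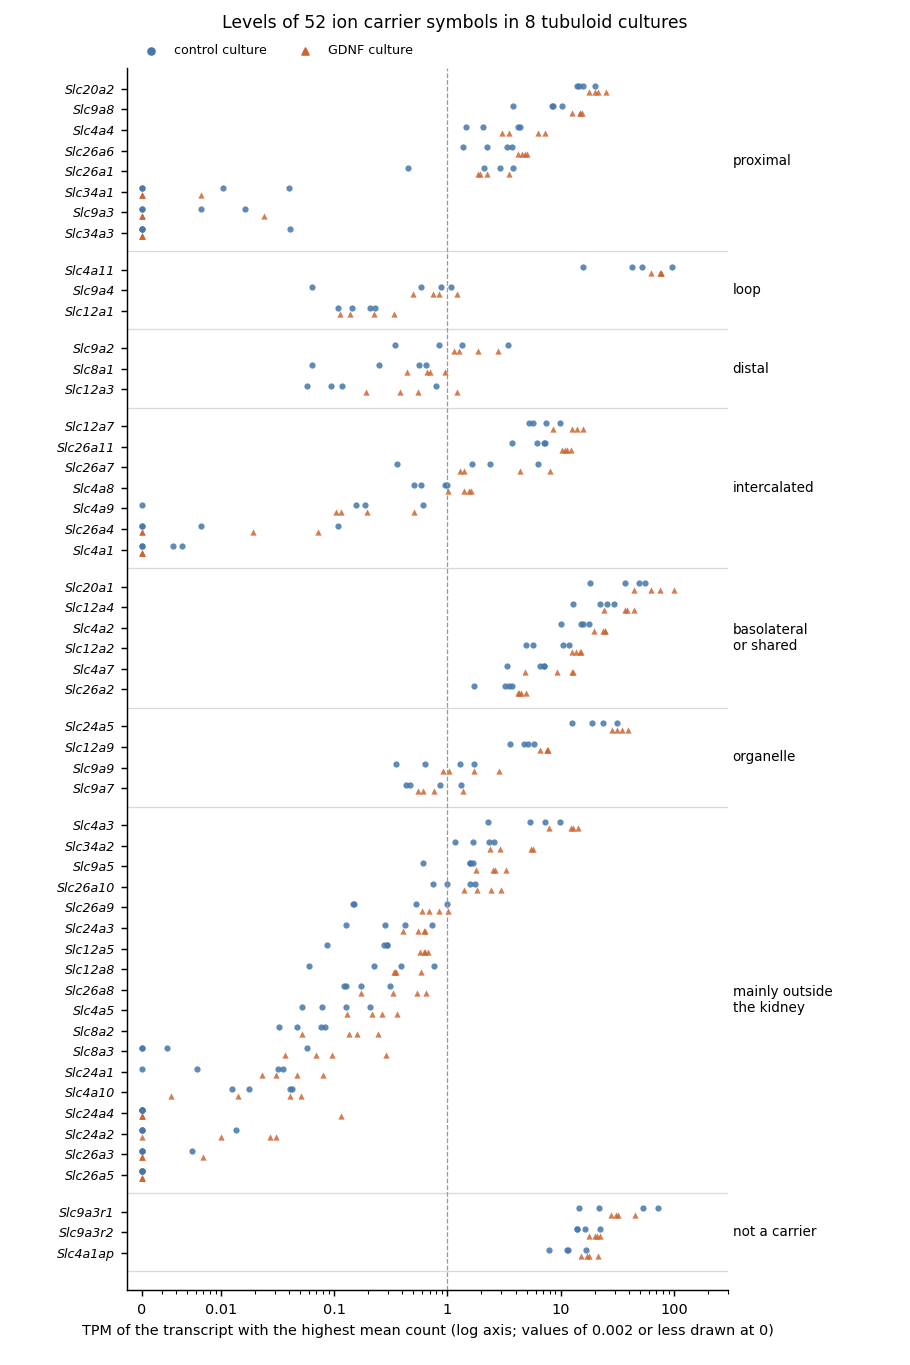
TPM on a log axis of 52 of the 55 symbols in each of 4 control (circles) and 4 GDNF cultures (triangles), grouped by the segment or place each carrier is known for, with the dashed line at 1 TPM. The proximal carriers *Slc34a1*, *Slc34a3* and *Slc9a3* lie at or near 0, while the 6 shared carriers drawn lie to the right of the line in every culture.

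Among proximal carriers, the apical phosphate and sodium-proton carriers of the mature tubule were close to absent. *Slc9a8*, a sodium-proton exchanger known for the neonatal tubule and also for the Golgi, was not. *Slc34a1* (chromosome 13, 55399622 to 55414695, GRCm38), the main phosphate carrier of the adult proximal tubule, had 9 counts in all, with 2 in control 3, 6 in control 21, 1 in GDNF culture 17 and 0 in the other 5 cultures. *Slc34a3*, its companion in phosphate uptake, had 5 counts, all in control 7. *Slc9a3*, which performs most of the proximal sodium-proton exchange, had 6 counts, with 1 in control 7, 2 in control 21 and 3 in GDNF culture 12. No culture held these 3 genes above the 3-count floor except for *Slc34a1* in control 21 and *Slc34a3* in control 7, and no fold change is given for them.

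Phosphate carriers of the other families were present. *Slc20a2* (18.5 TPM) and *Slc20a1* (55.4 TPM) encode PiT-2 and PiT-1, which import phosphate in most cells. *Slc34a2*, the phosphate carrier of lung and intestine, had 3.03 TPM and ranged from 1.16 to 5.72 TPM between cultures. Each of the 3 was higher than *Slc34a1*, at most 0.0401 TPM, in every culture.

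*Slc9a8* (chromosome 2, 167421599 to 167477000), a sodium-proton exchanger of the apical membrane and of the Golgi that is known for the neonatal proximal tubule, had 11.1 TPM (22.2 TPM summed over transcripts). A read counted in several transcripts enters such a sum more than once, so sums over transcripts are not read as levels. Whether the *Slc9a8* RNA came from proximal cells was not tested. *Slc4a4*, which carries bicarbonate out of the proximal cell into the blood, had 4.05 TPM (12.2 TPM summed). It was at 39.8, 61.5, 20.6 and 55.1 CPM in controls 3, 7, 14 and 21 and at 36.8, 70.7, 39.6 and 77.7 CPM in GDNF cultures 6, 12, 17 and 22. The groups overlapped, and the log2 fold change was 0.34 (standard error, SE, 0.35, edgeR adjusted p = 0.585). The anion exchangers *Slc26a6* (3.67 TPM), which exchanges chloride for oxalate or formate at the apical membrane, and *Slc26a1* (2.36 TPM), a sulfate carrier of the basolateral membrane, completed the group.

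The low level of the apical carriers went with that of other proximal genes. Of 15 proximal tubule markers, 12 had a mean under 1 TPM and 6 under 0.1 TPM, among them the endocytic receptor gene *Lrp2* at 0.0572 TPM. The sum of the list was 19.8 to 24.1 TPM in controls and 25.8 to 34.98 TPM in GDNF cultures, and came mostly from the 3 genes *Slc5a2*, *Ggt1* and *Gatm*, of which *Slc5a2*, the glucose carrier of the early proximal tubule, was the highest (8.88 TPM). Since mean TPM was higher in GDNF cultures for 78.6% of genes at 1 TPM or more, summed TPM of this and later lists is not read as a difference between groups. In edgeR at an unadjusted p of 0.05, 1 of the 10 tested markers was higher after the pulse (*Slc22a8*, an organic anion carrier, log2 fold change 1.77, SE 0.64, adjusted p = 0.177) and 1 was lower (*Slc17a3*, a phosphate and organic anion carrier, log2 fold change -2.53, SE 1.13, adjusted p = 0.225, at 0.0760 TPM or less in the mean of either group).

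Promoter sequences were compared between carriers of high and low level, since dinucleotide CG content separates promoters used in many tissues from those used in few. RefSeq promoters (build GRCm38.p6, 250 bases before to 50 after the start) were at hand for 42 of the 55 symbols. The letters CG, which read the same on both strands, stood at least 10 times in 70.6% of 17 carriers with a mean of at least 1 TPM and in 40.9% of 22 carriers below 1 TPM. For all genes with a promoter, the shares were 83.7% of 9858 and 23.4% of 6958. The carriers thus differed in the same direction as all genes, by less, and nothing particular to them is read from it. A CG stood at least once in 94.6% of all 32851 promoters. The promoters of the near-absent *Slc34a1* (2 CG, chr13:55399398-55399697, plus strand) and of the abundant *Slc9a8* (22 CG, chr2:167421460-167421759, plus strand) are shown as a CG-poor and a CG-rich one, with each CG in capitals, within a range of 1 (*Slc26a3*) to 30 (*Slc34a2*) among these symbols.
Slc34a1: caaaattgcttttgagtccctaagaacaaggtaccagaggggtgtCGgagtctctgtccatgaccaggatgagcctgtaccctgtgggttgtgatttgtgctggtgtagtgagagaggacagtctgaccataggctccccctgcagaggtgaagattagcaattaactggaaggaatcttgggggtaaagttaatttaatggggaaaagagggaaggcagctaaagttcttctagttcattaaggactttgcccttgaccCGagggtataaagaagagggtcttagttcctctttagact
Slc9a8: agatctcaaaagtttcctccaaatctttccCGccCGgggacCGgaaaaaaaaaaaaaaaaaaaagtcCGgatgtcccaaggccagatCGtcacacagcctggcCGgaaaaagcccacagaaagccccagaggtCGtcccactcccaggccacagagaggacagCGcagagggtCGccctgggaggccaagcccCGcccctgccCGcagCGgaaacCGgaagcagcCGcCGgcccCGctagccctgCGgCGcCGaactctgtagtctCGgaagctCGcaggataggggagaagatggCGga
Exceptions were found at both levels. *Slc9a3* and *Slc26a5*, with 6 and 0 counts, had 25 and 18 CG, and *Slc4a7* and *Slc24a5*, with 7.96 and 27.5 TPM, had 2 and 6.

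Among carriers listed for the loop of Henle, the one that defines the thick ascending limb was low. *Slc4a11*, listed for the thin limb, had the highest TPM of all members when read from the most counted transcript. Thin limb markers were not examined, and the cells that held its RNA were not tested. *Slc12a1* (chromosome 2, 125152510 to 125230002), the target of loop diuretics, had 0.188 TPM. Its counts were 62, 80, 112 and 104 in controls 3, 7, 14 and 21 and 103, 64, 154 and 40 in GDNF cultures 6, 12, 17 and 22. The groups overlapped throughout, with a log2 fold change of -0.11 (SE 0.43, edgeR adjusted p = 0.903). Its sign turned in 3 of 17 other fits. *Slc9a4*, a basolateral sodium-proton exchanger, had 0.739 TPM.

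*Slc4a11* (chromosome 2, 130684107 to 130697519), a proton and water carrier known in the kidney from the thin descending limb, had 62.1 TPM, followed by *Slc20a1* with 55.4 TPM, a difference smaller than the spread of either. With TPM summed over all transcripts of a gene the sums were 88.1 TPM for *Slc12a4*, 75.05 TPM for *Slc20a1* and 62.1 TPM for *Slc4a11*. These genes are listed as 3, 2 and 1 transcripts, and a read counted in several of them enters more than once. The order of the sums is therefore not read as an order of levels. The level of *Slc4a11* was 144.7, 84.4, 31.3 and 176.6 CPM in controls 3, 7, 14 and 21. In GDNF cultures 6, 12, 17 and 22 it was 129.4, 122.6, 100.3 and 115.5 CPM. Controls lay on both sides of all GDNF cultures, and the means of 109.2 ± 64.5 and 116.9 ± 12.5 CPM (SD, n = 4 per group) gave a log2 fold change of 0.10 (SE 0.41, edgeR adjusted p = 0.907). Its order among the controls was that of the general epithelial markers, whose sum was 1882, 867.4, 349.2 and 3148 TPM in controls 3, 7, 14 and 21. In GDNF cultures the orders differed, with *Slc4a11* lowest in culture 17 and the epithelial sum lowest in culture 22 (873.2 TPM). That sum came mostly from the keratin genes *Krt8* and *Krt18*. Taken singly, *Cdh1*, *Epcam*, *Cdh16* and *Pax2* were lowest in GDNF culture 17, *Krt8* and *Pax8* in culture 12, and *Krt18* in culture 22. The part of epithelial content in the level of *Slc4a11* was not tested.

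Markers of the thick ascending limb were also low, with 8 of 13 under 1 TPM in the mean. The tight junction gene *Cldn10* was the highest, at 11.2 TPM, and *Umod*, which encodes uromodulin, was at 1.08 TPM. The sum of the list was 7.39 to 36.1 TPM in controls and 10.4 to 30.6 TPM in GDNF cultures. Its order between cultures differed from that of *Slc12a1*: control 3 had the highest sum of the list and the lowest TPM of *Slc12a1* (0.108). In edgeR, 0 of 11 tested markers had an unadjusted or an adjusted p of 0.05 or less.

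Distal carriers were present at low and uneven levels. *Slc12a3* (chromosome 8, 94329109 to 94366222), the target of thiazides, was at 0.665, 3.30, 0.235 and 0.357 CPM in controls 3, 7, 14 and 21 and at 1.94, 3.99, 0.637 and 1.19 CPM in GDNF cultures 6, 12, 17 and 22. Control 7 stood among the GDNF cultures and the other controls below most of them, with a log2 fold change of 0.76 (SE 0.84, edgeR adjusted p = 0.611). With each culture left out it ran from 0.14 without GDNF culture 12 (edgeR adjusted p = 0.951) to 2.21 without control 7 (edgeR adjusted p = 0.142). *Slc12a3* was higher in each GDNF culture with more *Xist* than Y-linked RNA than in each with more Y-linked RNA, and so in controls.

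*Slc8a1* (chromosome 17, 81373105 to 81738387), which exports calcium in exchange for sodium at the basolateral side of the distal tubule and also in heart and smooth muscle, was at 3.91, 24.9, 28.3 and 10.2 CPM in controls 3, 7, 14 and 21. In GDNF cultures 6, 12, 17 and 22 it was at 17.04, 23.9, 25.4 and 32.5 CPM. The groups overlapped, with a log2 fold change of 0.55 (SE 0.51, edgeR adjusted p = 0.533) that was 0.22 without control 3. In TPM, a value per length, *Slc8a1* was at 0.535 (2.14 TPM summed over transcripts), and it has 18807 exonic bases in GENCODE M21. *Slc8a1* is listed as 4 transcripts, and a read counted in several of them enters its CPM more than once. *Slc9a2*, a sodium-proton exchanger of the apical membrane, had 1.63 TPM.

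Of 7 markers of the distal convoluted and connecting tubule, *Pvalb* had 0 counts in all 8 cultures, where 3 counts is the floor in each, and was 1 of 3 that had a mean under 0.1 TPM. *S100g* (23.7 TPM) and *Calb1* (11.5 TPM), which encode calcium-binding proteins, made up most of the sum of 12.8 to 53.0 TPM in controls and 23.2 to 76.9 TPM in GDNF cultures. The 3 tested markers did not reach an unadjusted p of 0.05 in edgeR.

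Carriers of intercalated cells split into a near-absent and a present set. *Slc4a1* (chromosome 11, 102348820 to 102365281), the basolateral exchanger of acid-secreting cells and of red blood cells, had 1 count in control 14, 1 in control 21 and 0 in the other cultures. *Slc26a4* (chromosome 12, 31519814 to 31560055), which encodes pendrin, had 20 counts in control 7, 11 in GDNF culture 6, 3 in GDNF culture 12 and 1 in control 21. It had 0 counts in the remaining 4 cultures. *Slc4a9*, a basolateral carrier of base-secreting cells, ranged from 0.0213 CPM in control 14 to 6.02 CPM in control 7, and the GDNF cultures lay between these, from 0.811 to 3.78 CPM. The log2 fold change of -0.49 (SE 1.02, edgeR adjusted p = 0.799) turned to 0.46 without control 7.

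The other set comprised *Slc12a7* (9.92 TPM), a potassium-chloride exporter, *Slc26a11* (8.67 TPM), a sulfate and chloride carrier, *Slc26a7* (3.25 TPM), a basolateral chloride carrier of the outer medulla, and *Slc4a8* (1.08 TPM), a sodium-driven chloride-bicarbonate exchanger. These 4 are less particular to the intercalated cell than *Slc4a1* and *Slc26a4*. The transcription factor gene *Foxi1*, which defines intercalated cells, was at most 0.334 TPM and the proton pump subunit gene *Atp6v1b1* at most 0.269 TPM, both in control 7, the culture with the most *Slc26a4* and *Slc4a9*. The sum of 13 intercalated cell markers was 7.30 to 15.2 TPM in controls and 7.47 to 13.6 TPM in GDNF cultures, with 5 markers under 0.1 TPM. The highest was *Atp6v0d2* (6.002 TPM), a proton pump subunit also made by macrophages and osteoclasts. By edgeR at an unadjusted p of 0.05, *Atp6v0d2* was lower after the pulse (log2 fold change -0.80, SE 0.32, adjusted p = 0.197) and *Kit*, a receptor gene that other cell types share, higher (0.95, SE 0.43, adjusted p = 0.224), of 9 tested.

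**Figure D2:**
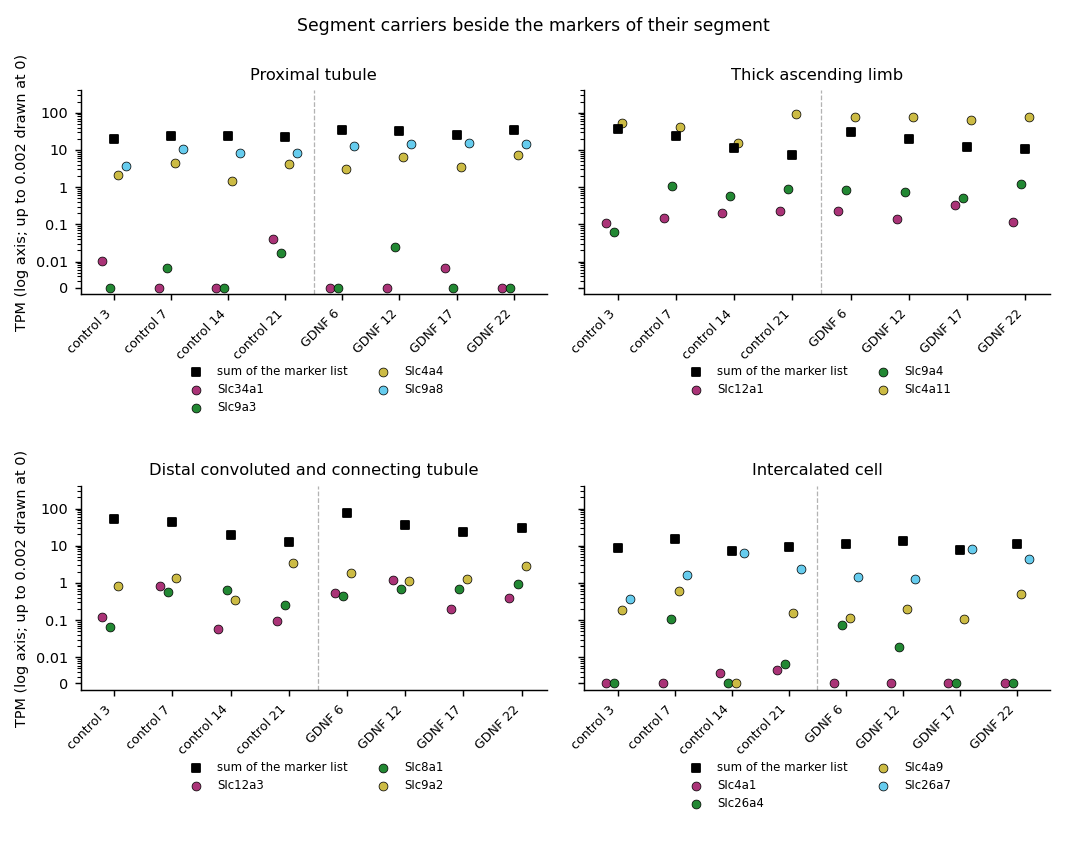
TPM on a log axis in each culture, with controls left and GDNF cultures right of the dashed line: black squares give the summed TPM of the marker list of a segment and colored points its carriers. *Slc34a1*, *Slc9a3*, *Slc4a1* and *Slc26a4* stay near 0, while the summed markers of their segments lie above 7 TPM. The proximal sum comes mostly from *Slc5a2*, *Ggt1* and *Gatm*. *Atp6v0d2* is the largest part of the intercalated sum, and the intercalated cell gene *Foxi1* is at most 0.334 TPM. *Slc4a11*, known from the thin descending limb but drawn with the thick ascending limb, exceeds the summed markers of the latter in each culture.

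Among carriers shared along the nephron, *Slc20a1* (chromosome 2, 129198773 to 129211615) led with 55.4 TPM by the most counted transcript. It was followed by *Slc12a4* (29.3 TPM), the potassium-chloride exporter of most cells, and *Slc4a2* (18.9 TPM), the common basolateral chloride-bicarbonate exchanger. Next came *Slc12a2* (11.2 TPM), the importer of sodium, potassium and chloride that sets cell volume and fluid secretion. Summed over transcripts, where a read counted in several of them enters more than once, *Slc12a4* had 88.1 TPM and *Slc4a2* 38.8 TPM. *Slc4a7* (7.96 TPM), which brings sodium and bicarbonate into the cell, and *Slc26a2* (3.77 TPM), a sulfate carrier, were lower. *Slc12a2* and *Slc12a4*, which move chloride in opposite directions, were thus both well above their segment-specific relatives *Slc12a1* and *Slc12a3*.

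*Slc20a1* was at 64.0, 137.4, 94.0 and 118.2 CPM in controls 3, 7, 14 and 21 and at 91.3, 150.8, 126.4 and 192.1 CPM in GDNF cultures 6, 12, 17 and 22. The highest values were in GDNF cultures, but the ranges overlapped (log2 fold change 0.44, SE 0.27, edgeR adjusted p = 0.359). *Slc12a2* was at 32.2, 42.6, 19.98 and 44.5 CPM in the same controls and at 52.1, 49.3, 40.8 and 42.2 CPM in the GDNF cultures. Control 14, the culture richest in stromal markers, was the lowest and the groups overlapped (log2 fold change 0.41, SE 0.24, edgeR adjusted p = 0.328).

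Among carriers of endosomes and other organelles, *Slc12a9* (6.11 TPM) and *Slc9a9* (1.32 TPM) passed 1 TPM and *Slc9a7* (0.798 TPM) did not. *Slc24a5*, known as a calcium exchanger of pigment cells, was listed at 27.5 TPM. In GENCODE M21, 39.5% of its exonic bases are shared with *Myef2* on the opposite strand, a gene at 42.7 TPM here. Since the sources used here do not say that reads were counted by strand, that level is uncertain. The same holds in part for *Slc4a2* (13.7% shared with *Fastk*, at 89.7 TPM) and *Slc26a10* (17.8% shared with *B4galnt1*, at 41.2 TPM).

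Carriers known mainly from other organs included *Slc4a3* (9.04 TPM), an anion exchanger of heart and brain, *Slc9a5* (1.96 TPM), a sodium-proton exchanger of neurons, and *Slc26a10* (1.71 TPM). Of the other 14 besides *Slc34a2*, *Slc26a5* (prestin of the inner ear) had 0 counts in every culture, *Slc26a3* had 2 counts, and *Slc24a4* had 12 counts, all of them in GDNF culture 6. The highest of these 14 were *Slc26a9* (0.619 TPM), *Slc24a3* (0.473 TPM) and *Slc12a5* (0.432 TPM).

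The GDNF pulse left no carrier with an adjusted p of 0.05 or less, and 5 members were higher in every pulsed culture than in every control. By the quasi-likelihood test of edgeR, with p-values adjusted over 16557 genes after Benjamini and Hochberg, 0 of the 46 tested members passed, as did 0% of all genes, with a smallest adjusted p of 0.167. DESeq2, which passed 14.4% of the 8610 genes it gave an adjusted p, passed 0 of 17 members, and limma-voom passed 0 of 46. At an unadjusted p of 0.05 in edgeR (22.1% of all genes in either direction), 4 members were higher, compared with 9.25% of all genes, and 0 were lower, compared with 12.9%. The GDNF cultures were all above the controls in CPM for these 5 members (6.99% of all genes) and all below them for 0 (6.26%). In TPM, the former count was 11, beside 20.6% of all genes. The share of higher members at this p was close to that of all genes. Without control 3, 4 members were higher at this p, beside 5.86% of all genes.

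*Slc9a8*, the exchanger of the apical membrane and the Golgi, was at 29.3, 57.5, 47.3 and 43.4 CPM in controls 3, 7, 14 and 21 and at 60.4, 66.9, 68.8 and 62.1 CPM in GDNF cultures 6, 12, 17 and 22. The groups did not overlap, though control 7 came within 3 CPM of GDNF culture 6. Means were 44.4 ± 11.7 and 64.6 ± 3.95 CPM (SD, n = 4 per group), a log2 fold change of 0.54 (SE 0.19, edgeR unadjusted p = 0.0189, adjusted p = 0.173, DESeq2 adjusted p = 0.0904). Without control 3, the lowest culture, the log2 fold change was 0.39.

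*Slc26a11* (chromosome 11, 119355509 to 119381076) was at 8.63, 10.3, 12.3 and 11.1 CPM in controls 3, 7, 14 and 21 and at 17.8, 13.8, 14.7 and 14.5 CPM in GDNF cultures 6, 12, 17 and 22. All pulsed cultures were above all controls, and GDNF culture 6 was the highest. Means of 10.6 ± 1.54 and 15.2 ± 1.77 CPM (SD, n = 4 per group) gave a log2 fold change of 0.52 (SE 0.17, edgeR unadjusted p = 0.0131, adjusted p = 0.167). Without control 3 it was 0.44.

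*Slc12a5* (chromosome 2, 164960846 to 164999731), the chloride exporter of neurons, was at 0.443, 1.11, 1.11 and 0.952 CPM in controls 3, 7, 14 and 21 and at 1.84, 2.04, 1.90 and 1.77 CPM in GDNF cultures 6, 12, 17 and 22. The groups were clearly apart at this low level, with means of 0.903 ± 0.315 and 1.89 ± 0.116 CPM (SD, n = 4 per group). The log2 fold change of 1.06 (SE 0.35, edgeR unadjusted p = 0.0134, adjusted p = 0.167) became 0.84 without control 3.

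*Slc4a2* (chromosome 5, 24423761 to 24440947) was at 71.6, 81.5, 78.4 and 86.2 CPM in controls 3, 7, 14 and 21 and at 87.8, 102.7, 103.6 and 93.3 CPM in GDNF cultures 6, 12, 17 and 22. Here the groups were adjacent, with control 21 just under GDNF culture 6. Its log2 fold change was 0.29 (SE 0.13, edgeR unadjusted p = 0.0465, adjusted p = 0.220), and without control 3 it was 0.24 with an unadjusted p of 0.0742.

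**Figure D3:**
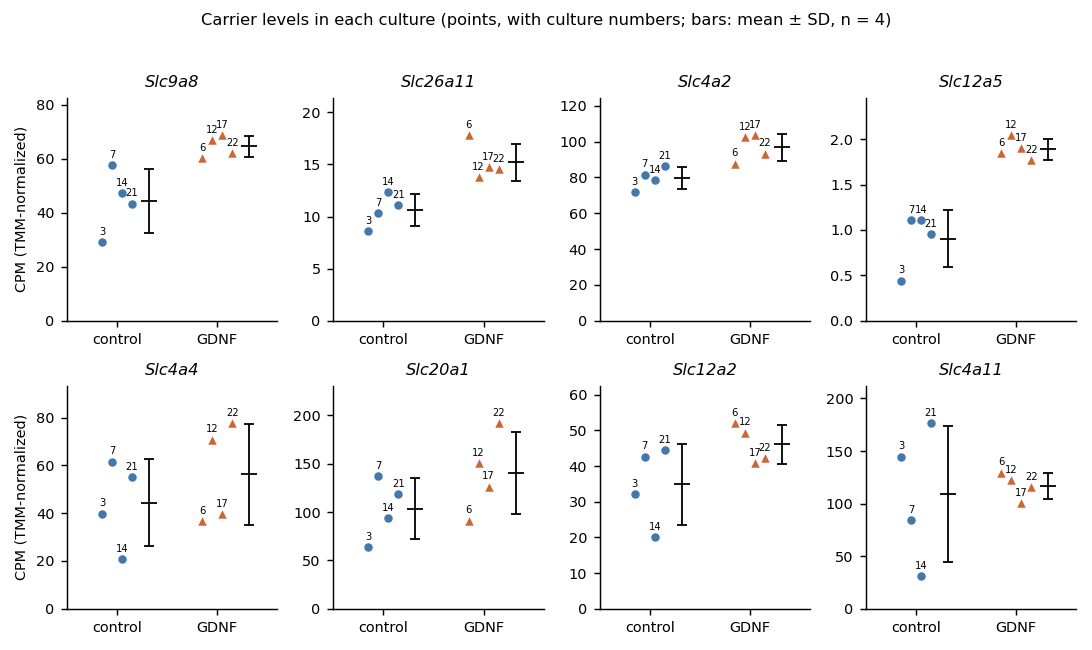
TMM-normalized CPM of 8 carriers in each culture (points with culture numbers) with the mean ± SD of each group (bars, n = 4). For *Slc9a8*, *Slc26a11*, *Slc4a2* and *Slc12a5* all GDNF cultures lie above all controls and control 3 is the lowest, while the groups overlap for *Slc4a4*, *Slc20a1*, *Slc12a2* and *Slc4a11*.

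Most members had small positive fold changes. The log2 fold change was above 0 for 36 of the 46 tested members and below 0 for 10, with a median of 0.34, compared with 52.5% of all genes and a median of 0.03. All 8 shared carriers were among those above 0, from 0.20 (*Slc26a2*) to 0.44 (*Slc20a1*), whereas proximal carriers ranged from -0.38 (*Slc26a1*) to 0.54 (*Slc9a8*). The 3 symbols that encode no carrier had log2 fold changes of 0.21 (*Slc4a1ap*), -0.10 (*Slc9a3r2*) and -0.68 (*Slc9a3r1*). With library size only in place of TMM, all genes moved up, to a median of 0.25, and the members' median was 0.55.

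**Figure D4:**
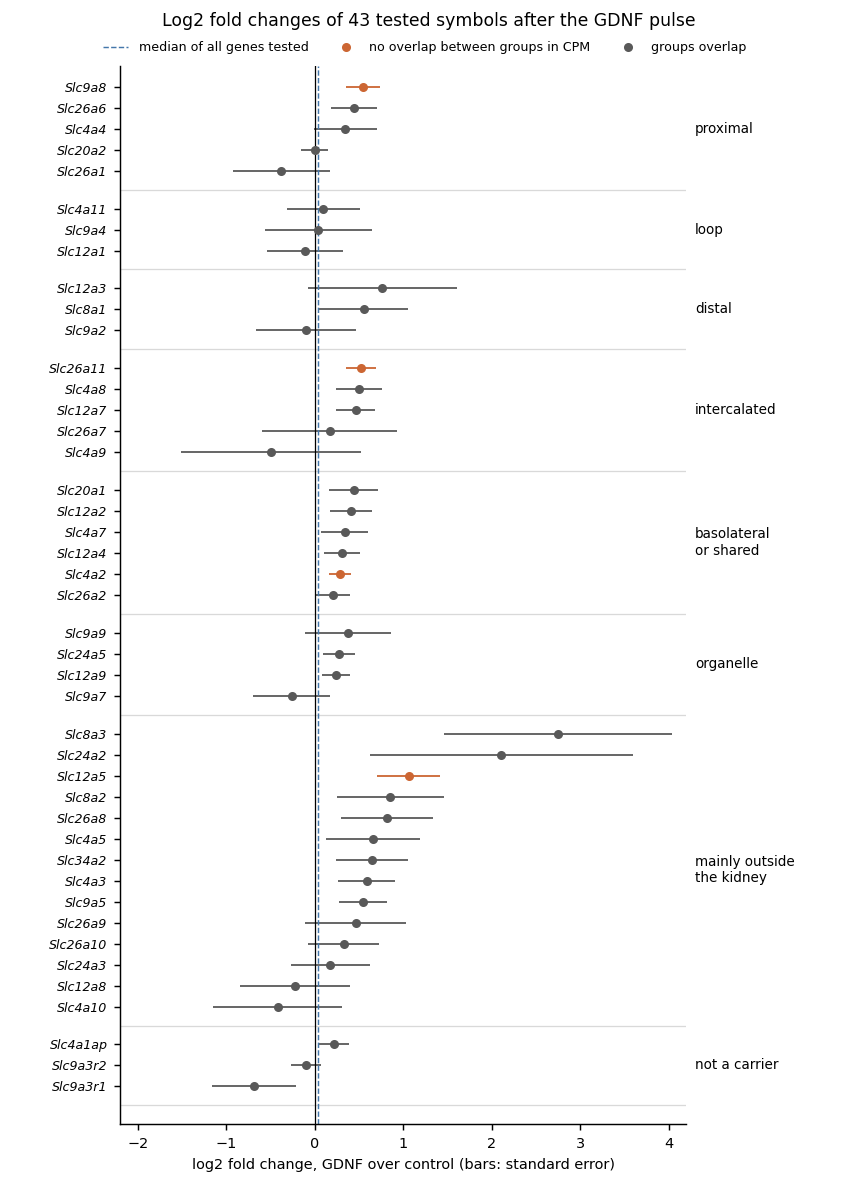
Log2 fold change (GDNF over control) with its standard error for 43 of the 46 tested symbols, grouped as in the plot of levels, with the solid line at 0 and the dashed line at the median of all genes tested. Of the 43 points, 33 lie above 0, and the 4 orange ones mark members whose groups do not overlap in CPM.

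The members' fold changes differed between classes of exonic length, and their median was smaller without control 3. Control 3 had the lowest CPM of the 8 cultures for 21 of the 46 members, compared with 25.4% of all genes tested, and without it 34 of 46 members were above 0, with a median of 0.22 (all genes 0.04). All genes tested were also ordered by exonic length into 4 classes of equal size, and the median log2 fold change went from -0.24 in the class of shortest genes through -0.11 and 0.07 to 0.27 in the class of longest genes. Most members are long, with 24 in the third class (median 0.27), 15 in the fourth (median 0.46) and 7 in the others. Without control 3 the medians in the third and the fourth class were 0.20 and 0.36 for members and 0.07 and 0.19 for all genes. The part of length in the members' fold changes was not tested.

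**Figure D5:**
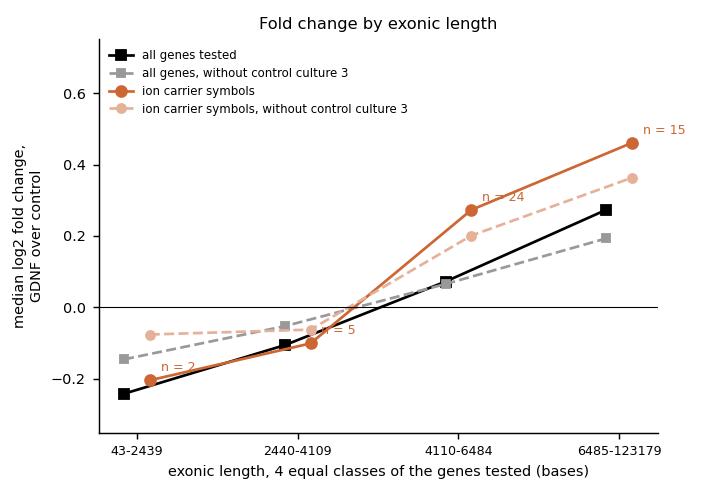
Median log2 fold change (GDNF over control) of all genes tested (squares) and of the members (circles, with their number) in 4 classes of exonic length in bases, with control 3 (solid) and without it (dashed). Both rise from the shortest to the longest class, and the members lie above all genes in the upper 2 classes.

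In 3 of the 46 members, beside 5.63% of all genes, the 4 cultures with more *Xist* RNA, control 3 and GDNF culture 6 with both kinds included, stood apart from the 4 with more Y-linked RNA. These members, named after their values were seen, were *Slc26a7* (0.361 to 1.66 TPM in cultures with more *Xist*, 2.40 to 8.13 TPM in the others), *Slc9a9*, also lower there, and *Slc34a2*, higher there in CPM. In each group the cultures with more *Xist* also have the lower culture numbers, and the 2 cannot be told apart. With the kind as a covariate, log2 fold changes were 0.54 for *Slc9a8*, 0.53 for *Slc26a11*, 1.07 for *Slc12a5* and 0.29 for *Slc4a2*, and the smallest adjusted p of these was 0.143 (edgeR).

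Regulators of the carriers were examined through a list of 27 genes, with the kinases that phosphorylate SLC12 carriers, scaffold proteins, carbonic anhydrases and hormone receptors. In edgeR at an unadjusted p of 0.05, 3 of the 27 were higher after the pulse, compared with 9.25% of all genes, and 1 was lower, compared with 12.9%. The share of higher regulators was close to that of all genes. None had an edgeR adjusted p of 0.05 or less, and the median log2 fold change was 0.10, compared with 0.03 for all genes. DESeq2 passed 14.4% of all genes it gave an adjusted p. *Wnk4*, a kinase upstream of *Slc12a3* and *Slc12a1*, was at 3.47, 6.19, 3.69 and 4.74 TPM in controls 3, 7, 14 and 21 and at 12.9, 10.4, 9.53 and 9.91 TPM in GDNF cultures 6, 12, 17 and 22. The groups were apart in TPM and in CPM, with a log2 fold change of 0.86 (SE 0.21, edgeR unadjusted p = 0.00190, adjusted p = 0.167, DESeq2 adjusted p = 0.0242) that was also 0.86 without control 3.

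*Cab39l*, which encodes a partner of the kinases that WNK proteins activate, was lower in every GDNF culture in CPM, with a log2 fold change of -0.51 (SE 0.15, edgeR adjusted p = 0.167, DESeq2 adjusted p = 0.0332). Its TPM ranges overlapped (20.2 ± 2.02 in controls and 19.0 ± 2.14 in GDNF cultures, SD, n = 4 per group). *Wnk3*, a further kinase of that family, had a log2 fold change of 0.89 (SE 0.38, edgeR adjusted p = 0.212), and *Fgfr1*, a receptor through which FGF23 lowers phosphate uptake, one of 0.54 (SE 0.21, edgeR adjusted p = 0.188). *Kl*, its co-receptor for FGF23, was at 0.143 TPM. The kinase genes *Stk39* (19.2 TPM) and *Oxsr1* (8.75 TPM), which act on SLC12 carriers directly, had log2 fold changes of -0.02 and 0.03.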

How the data were processed

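Poly-A RNA of 8 tubuloid cultures was sequenced from SMART-Seq v4 libraries. The authors deposited whole-number counts per RefSeq transcript, not normalized, in a table for each culture, and per the labels STAR, featureCounts and DESeq2 were used with the build mm10 (GRCm38). The deposited TPM values were made by the authors from these counts and transcript lengths. Deposited FPKM values were not used. The versions, and how strand and reads that fit several transcripts were treated, are not given in the sources used here.

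Groups were taken from the treatment given in the sample labels. Counts were summed per symbol, so a read counted in several transcripts of a gene enters more than once. The tables held 33068 transcripts of 24063 symbols. Tests used edgeR 4.0.16 in R 4.3.3 on all 8 cultures (filterByExpr at its defaults, TMM factors, glmQLFit and glmQLFTest, GDNF over control), with Benjamini-Hochberg adjustment over the 16557 genes tested and a threshold of 0.05. The SE of a log2 fold change is its size divided by the square root of F. Levels between genes used the TPM of the transcript with most counts. Alternatives were limma-voom with sample quality weights (limma 3.58.1), DESeq2 1.42.0, other scalings and filters, 1 transcript per symbol, a covariate for whether *Xist* or Y-linked RNA was higher, and leaving out each culture. Counting the 52 carriers alone was added after seeing the data. The tests were checked on simulated counts.

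The members, the segments given to them and the lists of markers and regulators were chosen with earlier results of these data known. Levels are described for the members, and fold changes are named for the carriers that define a segment or are shared, for members with an unadjusted p of 0.05 or less or no overlap between groups, and for list genes at that p. Others stand as examples of a range. The values of 3 members are not reported here, though counts and medians over the members include them. Coordinates and promoters are from RefSeq (GRCm38.p6) and exon overlaps and lengths from GENCODE M21, which gave a length for 95.3% of the genes tested and for all 46 members tested. Depth was 72991721 to 97490625 counts per culture, where 3 counts served as a floor that covers counting error only. Scripts used Python 3.11.15 with pandas 2.3.3, NumPy 2.4.6 and matplotlib 3.10.9.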

Additional observations from a re-analysis of the deposited data

Results flagged for a closer look

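In 114 sets of 4 values, each searched for a single distant culture (the CPM of each member tested and the summed TPM of each marker list, in controls and in GDNF cultures), 3 had one, where chance gives about 5.7 at 1 in 20. *Slc12a3* was at 3.30 CPM in control 7, while the other controls were at 0.235 to 0.665 CPM. *Slc8a3*, a sodium-calcium exchanger of brain and muscle, was at 0.333 CPM in control 21 and at 0 to 0.0209 CPM in the other controls. *Slc24a2*, a sodium-calcium exchanger of brain and retina, was at 0.167 CPM in control 21, from 14 counts, and at 0 in the other controls.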

How the results depend on the processing

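No member had an adjusted p of 0.05 or less in edgeR or in any of the 18 alternatives. Counts at an unadjusted p of 0.05 were 4 in edgeR, all higher, 7 with limma-voom and 12 with library size only, again all higher, and 3 to 8 with each culture left out, 8 of them without GDNF culture 6 and 7 (6 higher) without control 14. *Slc26a11* and *Slc12a5* reached that p in all 18 alternatives, *Slc9a8* in 17 (not without control 21) and *Slc4a2* in 7. Members with no overlap between groups were 5 in CPM, beside 6.99% of all genes higher and 6.26% lower, and 11 in TPM, beside 20.6% higher. They were 7 with library size only and 5 to 9 with each culture left out, 9 without GDNF culture 6 and 8 without control 21. The share over all genes was not taken for library size only or with a culture left out. The members' median log2 fold change of 0.34 was 0.55 with library size only, which moved the median of all genes from 0.03 to 0.25, and 0.22 to 0.39 with each culture left out. Markers and regulators at that p were 11 in edgeR and 5 to 12 with each culture left out, 5 of them without control 3 or GDNF culture 22 and 6 without control 21. The causes of these changes were not tested, apart from library size only, which by construction leaves out the composition factors.

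Of 197 fold changes of 11 named members under the alternatives, 192 kept their direction and 5 did not. *Slc12a1* was at 0.090 with library size only, and from -0.46 to 0.10 with each culture left out (0.04 without GDNF culture 12, 0.10 without GDNF culture 22). *Slc4a9* was at 0.49 with limma-voom, and from -1.19 to 0.46 with each culture left out (0.46 without control 7). The 52 carriers alone gave the same 4 members. Of 27 members reported singly with at least 1 TPM, 5 moved by more than the spread between cultures when TPM was summed over transcripts, namely *Slc12a4* (29.3 to 88.1 TPM, then above *Slc20a1* and *Slc4a11*), *Slc4a2* (18.9 to 38.8), *Slc9a8* (11.1 to 22.2), *Slc4a4* (4.05 to 12.2) and *Slc9a3r2* (18.5 to 37.9). Each of these 5 is listed as 2 or 3 transcripts, and a read counted in several of them enters the sum more than once. No paired analysis was possible because the groups share no culture numbers. With 4 cultures per group and a coefficient of variation of 36.8% between them, small differences are within the spread, and members with a few counts carry no comparison.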

Other observations

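The other marker lists place the carriers among further cells. Of 10 principal cell markers, 0 of 9 tested had an unadjusted p of 0.05 or less in edgeR, and their summed TPM was 14.4 to 49.7 in controls and 23.9 to 119.7 in GDNF cultures, the highest in GDNF culture 6. *Fxyd4*, a regulator of the sodium pump, was the highest of them at 20.8 TPM, and with *Gata3* (16.3 TPM) made up most of the sum. Of the 10 markers, 4 had a mean under 1 TPM, among them the water channel gene *Aqp2* at 0.0735 TPM. The general epithelial list had 1 lower gene of 7 tested at that p, the keratin gene *Krt8* (log2 fold change -1.45, SE 0.63, edgeR adjusted p = 0.216), and the stromal list 1 of 8, the proteoglycan gene *Lum* (-1.30, SE 0.37, edgeR adjusted p = 0.167, DESeq2 adjusted p = 0.0251), which was lower in every GDNF culture than in every control in CPM. Endothelial markers summed to 33.7 to 119.9 TPM in controls and 56.8 to 145.4 TPM in GDNF cultures, with 1 higher gene of 5 tested at that p, *Tek*, a receptor gene at 0.0194 and 0.157 TPM in the group means (log2 fold change 2.69, SE 1.07, edgeR adjusted p = 0.193). The defining endothelial gene *Cdh5* was at most 0.499 TPM. Of the podocyte and immune cell lists, 0 of 6 and 0 of 3 tested genes reached that p in edgeR. Podocyte markers summed to 23.2 to 135.1 TPM in controls and 35.4 to 152.7 TPM in GDNF cultures, and immune cell markers to 3.37 to 5.395 and 4.199 to 8.59 TPM.

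The order of the cultures in the podocyte list was nearly that of the stromal list, with control 3 and GDNF culture 6 lowest and control 14 and GDNF culture 17 highest in their groups in both. Among members, *Slc26a7* had the same 2 cultures highest (6.37 TPM in control 14 and 8.13 TPM in GDNF culture 17), and *Slc4a11* the same 2 lowest (15.7 and 62.6 TPM). The share of these cells in either value was not tested.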
